A study of Rattus norvegicus with 18 samples.

Results

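The compounds DDMB and DDEB were compared in rat primary hepatocytes through the difference of their effects, that is, the change with DDEB over its own DMSO control minus the change with DDMB over its own. The compounds belong to the p-dialkoxy chlorobenzenes of the title, whose mode of action the study set out to examine. They carry only codes in the labels, so the structural difference between DDMB and DDEB is not described here. Of the 4 compounds and 18 samples in the series, 2 compounds and 12 samples enter this comparison, and 1 pair of compounds was compared. The groups are DDMB and its DMSO control VC_1, and DDEB and its DMSO control VC_2, with 3 samples each. All are cryopreserved hepatocytes of male Sprague Dawley rats, cultured for 24 h before exposure and then held for 24 h with DMSO or with a compound at 300 µM, so dose and time were matched. Both controls carry the vehicle alone. The design text calls the samples independent experiments but the labels do not say whether different animals were used, so p-values measure only the spread between these samples, which may be technical. Such cultures can lose liver functions after plating, and no second dose or time was available for this pair.

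Hepatocytes sense foreign compounds and fatty acids through a small set of transcription factors. PPARα is activated by fatty acids and by peroxisome proliferators, and in rat liver it switches on fatty acid ω-hydroxylases of the Cyp4a family, peroxisomal and mitochondrial β-oxidation and the genes of ketone body synthesis. The receptors CAR and PXR induce the Cyp2b and Cyp3a enzymes of drug metabolism, and the AhR induces the Cyp1 enzymes and the aldehyde dehydrogenase Aldh3a1. ATF4 is the transcription factor of the integrated stress response and drives amino acid transport and synthesis.

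Levels are given as the log2 of the processed spot intensity minus the array's 75th percentile, so 0 is a bright probe and a step of 1 is 2-fold. On each of the 12 arrays, 61.0% to 64.2% of spots were brighter than background by the scanner's own criterion, and the 75th percentile lay between 421 and 640 intensity units. All 8 hepatocyte markers, among them Alb, Ttr, Apoa1 and Hnf4a, were well above background on all 12 arrays. Of 7 markers of Kupffer cells, only Cd68 was well above background on every array, and Cd163, Csf1r, Vsig4 and Cd5l were so on none. The summed level of the Kupffer markers varied widely, over -0.76 to 2.16 in VC_1 and -0.71 to 2.13 with DDMB. It ranged over -0.36 to 2.44 in VC_2 and -0.31 to 2.1 with DDEB. The endothelial markers Cdh5 and Vwf and the cholangiocyte markers Epcam and Sox9 were well above background on all 12 arrays. The part of other cell types in the results was not tested. The stellate cell or fibroblast markers Col1a2, Col3a1 and Dcn, with 3 others of 9, were well above background on all 12 arrays, and their summed level ranged over 0.24 to 0.99 in VC_1, 0.32 to 0.91 with DDMB, 0.41 to 1.1 in VC_2 and 0.45 to 0.94 with DDEB. VC_1 and DDMB lay on 1 slide, VC_2 and DDEB replicates 1 and 2 on another, and DDEB replicate 3 on a further slide, and the design text names different chip lots. The controls VC_2 and VC_1 themselves differed in 3181 of 21401 genes at an adjusted p below 0.05 (limma, 14.9%), so each compound is read only against its own control. A dim spike-in control gave 1.73% to 2.04% of the signal of a bright one on the arrays of VC_1, VC_2 and DDMB and 1.09% to 1.66% on those of DDEB, and the part of this in the results was not tested. The cultures also differed within groups. The urea cycle enzyme gene Cps1 read 3.48, 3.39 and 1.75 in replicates 1 to 3 of VC_1, 3.61, 3.49 and 1.82 in VC_2, 3.53, 3.27 and 2.10 with DDEB and 4.02, 2.66 and 3.59 with DDMB. Replicate 3 was the lowest in every group but DDMB, where replicate 2 was.

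No gene differed between the compounds after adjustment over all 21401 genes (limma, 0%, smallest adjusted p = 0.0753). At an unadjusted p below 0.05 there were 864 genes (4.04%), of which 518 (2.42%) had a higher effect with DDEB and 346 (1.62%) a lower one. Under 26 alternative settings the count after adjustment was 0 in 22 and 1 or 2 in the others, with 1 gene without VC_2 replicate 2. Without DDEB replicate 3, each compound lay on 1 slide with its own control, and there 0 genes were called (limma) and 1407 were at an unadjusted p below 0.05. The genes below are therefore estimates with their errors, and none of them is a called difference. Across all genes the effects of DDEB and DDMB correlated with a Pearson r of 0.288 and a Spearman rho of 0.300, and with a Pearson r of 0.448 in the brightest of 3 equal bins of genes by level. These are correlations across genes, which are not independent replicates, and the compounds share no control samples. Both effects had the same sign in 13280 genes (62.1%) and lay above 0 together in 7196 (33.6%). The typical effect was small in both, with an SD over genes of 0.292 for DDEB and 0.234 for DDMB.

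**Figure D1:**
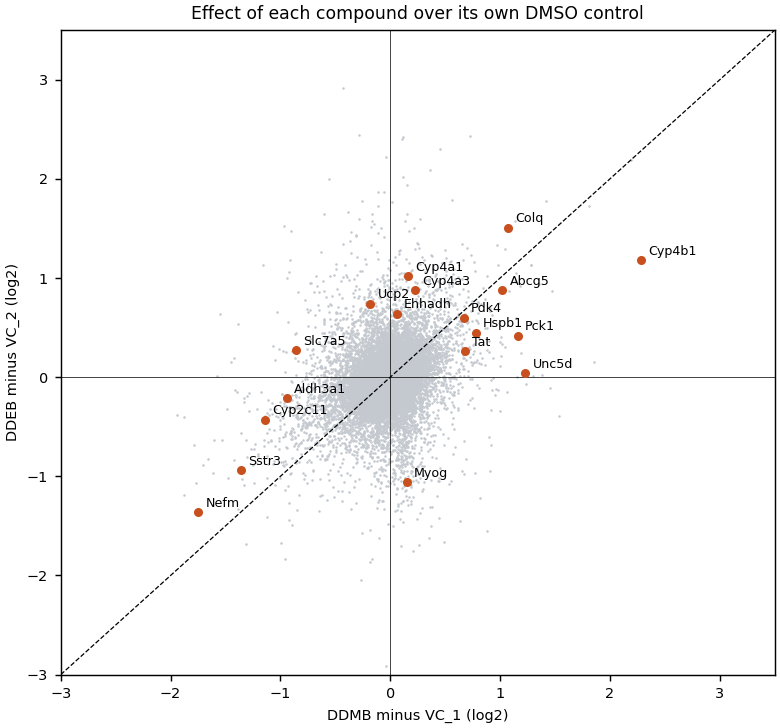
The log2 effect of DDEB over VC_2 (vertical axis) against the log2 effect of DDMB over VC_1 (horizontal axis) for 21401 genes in grey, with named genes in orange and the line of equal effects dashed. Abcg5 and Pdk4 lie near the dashed line, Cyp4a1 and Ucp2 above it at a DDMB effect near 0, and Pck1, Tat and Unc5d below it.

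For each compound alone, 4 genes (0.0187%) passed for DDEB against VC_2 and 14 (0.0654%) for DDMB against VC_1 (limma, adjusted p below 0.05). At an unadjusted p below 0.05 the counts were 2299 (10.7%) and 1520 (7.10%). Those for DDEB with a symbol were Crat, which loads acetyl groups onto carnitine, and Aanat. Those for DDMB with a symbol were Aldh3a1, Cyp2c11, Nefm, Pcsk5, Pla1a, Selenop, Slc9a9 and Sstr3. These short lists depend on single libraries. The DDEB count was 0 when replicate 1 or 2 of DDEB or replicate 2 of DDMB was left out (limma). Leaving out replicate 3 of DDMB, replicate 1 or 2 of VC_2 or any sample of VC_1 gave 1, leaving out replicate 1 of DDMB gave 9 and leaving out replicate 3 of DDEB gave 13. The DDMB count was 0 when replicate 3 of DDMB or any sample of VC_1 was left out (limma). It was 3 with replicate 2 of DDMB left out, 8 with replicate 2 of DDEB, 9 with replicate 2 of VC_2 and 22 with replicate 3 of DDEB. A gene called for 1 compound and not for the other is not thereby shown to differ between them. Of the called genes, Pcsk5, a proprotein convertase, had an effect of 0.54 ± 0.08 with DDEB and 0.62 ± 0.08 with DDMB (log2, ± SE), a difference of -0.08 (95% interval -0.33 to 0.17).

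The ω-hydroxylases of fatty acids held the widest gaps among the lipid genes. Cyp4a1, the classical PPARα target in rat liver, stood at 2.82, 2.81 and 2.89 in VC_1 and at 2.53, 3.15 and 3.32 with DDMB. It stood at 2.63, 2.61 and 2.67 in VC_2 and at 3.49, 3.74 and 3.74 with DDEB. The DDEB arrays all lay above their control and the DDMB arrays lay on both sides of theirs. The estimated effect was 1.02 ± 0.17 with DDEB and 0.16 ± 0.17 with DDMB, and the difference was 0.86 ± 0.24 (interval 0.32 to 1.39, unadjusted p = 0.00536, adjusted p = 1). Cyp4a3, a close relative, read 4.14, 4.17 and 3.90 in VC_1, 4.19, 4.22 and 4.49 with DDMB, 3.96, 4.00 and 3.77 in VC_2 and 4.79, 4.91 and 4.66 with DDEB. Treated arrays lay above control with either compound, by 0.88 ± 0.12 with DDEB and 0.23 ± 0.12 with DDMB, a difference of 0.65 ± 0.17 (interval 0.28 to 1.02, unadjusted p = 0.00305). Its other probe gave 0.51 ± 0.17. For Cyp4a2 the estimate was of like size, 1.06 ± 0.52, but the replicates spread widely and the interval ran from -0.10 to 2.22. Cyp4a genes are near-identical in sequence, and probes may read more than 1 of them. Cyp4b1, a P450 of another subfamily, leaned the other way. Its effect was 1.18 ± 0.42 with DDEB and 2.28 ± 0.42 with DDMB, a difference of -1.09 ± 0.59 (interval -2.40 to 0.21). The other Cyp4b1 probe gave -0.02 ± 0.67, so the probes of this gene disagree. Over the 9 ω-hydroxylases measured, the median difference was 0.08, with 2 at an unadjusted p below 0.05 and higher with DDEB and 0 lower.

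Peroxisomal β-oxidation shortens very long and branched fatty acids. Its 30 measured genes had a median effect of 0.27 with DDEB and 0.15 with DDMB, so both medians lay above that of all genes (0.01 for each compound). The median difference was 0.07, against 0.00 over all genes, with 2 members at an unadjusted p below 0.05 and higher with DDEB and 0 lower. Those were Ehhadh and Cat. Ehhadh, the bifunctional enzyme of the pathway, stood at -0.28, -0.27 and -0.38 in VC_1 and at -0.55, -0.12 and -0.08 with DDMB. In VC_2 it was lower, at -1.07, -1.06 and -0.91, and with DDEB it was -0.39, -0.32 and -0.40. The DDMB arrays lay on both sides of VC_1, and the DDEB arrays were all above VC_2. The treated groups themselves were level, since DDEB minus DDMB was -0.12, and the difference of effects, 0.58 ± 0.17 (interval 0.21 to 0.95), goes with a gap of -0.70 between VC_2 and VC_1 (adjusted p = 0.00394). Cat, the catalase that breaks down the hydrogen peroxide made in peroxisomes, had 0.38 ± 0.11 with DDEB and -0.06 ± 0.11 with DDMB, a difference of 0.44 ± 0.16. Crat stood at 4.46, 4.41 and 4.40 in VC_1, 4.80, 5.12 and 5.06 with DDMB, 4.46, 4.45 and 4.42 in VC_2 and 5.14, 5.16 and 5.20 with DDEB. Every treated array lay above its controls, and the difference was 0.15 (interval -0.12 to 0.42).

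Mitochondrial β-oxidation and the genes of fuel selection were read in the same way. The 27 mitochondrial genes had median effects of 0.30 with DDEB and 0.17 with DDMB, and no member reached an unadjusted p below 0.05 for the difference. Cpt1a, which admits long-chain fatty acids to the mitochondrion, had 0.60 ± 0.25 with either compound, yet the interval of the difference ran from -0.80 to 0.80, so a gap of 1.5-fold could not be seen. Pdk4, which blocks glucose oxidation, had 0.60 ± 0.11 and 0.67 ± 0.11, with a tighter interval of -0.43 to 0.29. Of the 24 genes of fuel selection and ketone body synthesis, 1 had an unadjusted p below 0.05. It was Ucp2, an inner membrane carrier, at -2.95, -2.54 and -2.66 in VC_1, -2.61, -3.01 and -3.06 with DDMB, -2.93, -3.36 and -3.37 in VC_2 and -2.48, -2.74 and -2.23 with DDEB. DDEB arrays lay above VC_2 and DDMB arrays overlapped VC_1, for a difference of 0.91 ± 0.26 (interval 0.32 to 1.5). Creb3l3, a liver transcription factor that works with PPARα, had 0.55 (interval -0.02 to 1.12), and 0.30 without DDEB replicate 3. The lowest estimate of this list went the other way. It was that of Txnip, -0.79 (interval -1.77 to 0.19), with effects of -0.68 for DDEB and 0.11 for DDMB.

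Taken over these 4 lists of fatty acid use, 90 genes were measured. At an unadjusted p below 0.05, 34 were higher than control with DDEB and 22 with DDMB, where 6.32% and 3.78% of all genes were. The median difference between the compounds was 0.10, 62 lay above 0 and 28 below, and 5 were at an unadjusted p below 0.05 with DDEB higher and 0 with DDEB lower (5.56% against 4.04% of all genes). In 16 genes all 3 DDEB arrays exceeded all 3 DDMB arrays once each was set against its own control, and in 0 the reverse held. Over all genes these shares were 8.24% and 9.59%. The median member stood at 0.30, 0.32 and 0.24 above control on the DDEB arrays and at 0.12, 0.05 and 0.17 on the DDMB arrays, which do not overlap. The median difference was 0.18 without VC_1 replicate 3, 0.05 without VC_2 replicate 3 and 0.06 without DDMB replicate 2. For the peroxisomal genes alone it was 0.16 without VC_1 replicate 3 and -0.001 without VC_2 replicate 3. For those of fuel selection it was 0.02 without VC_2 replicate 3.

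**Figure D2:**
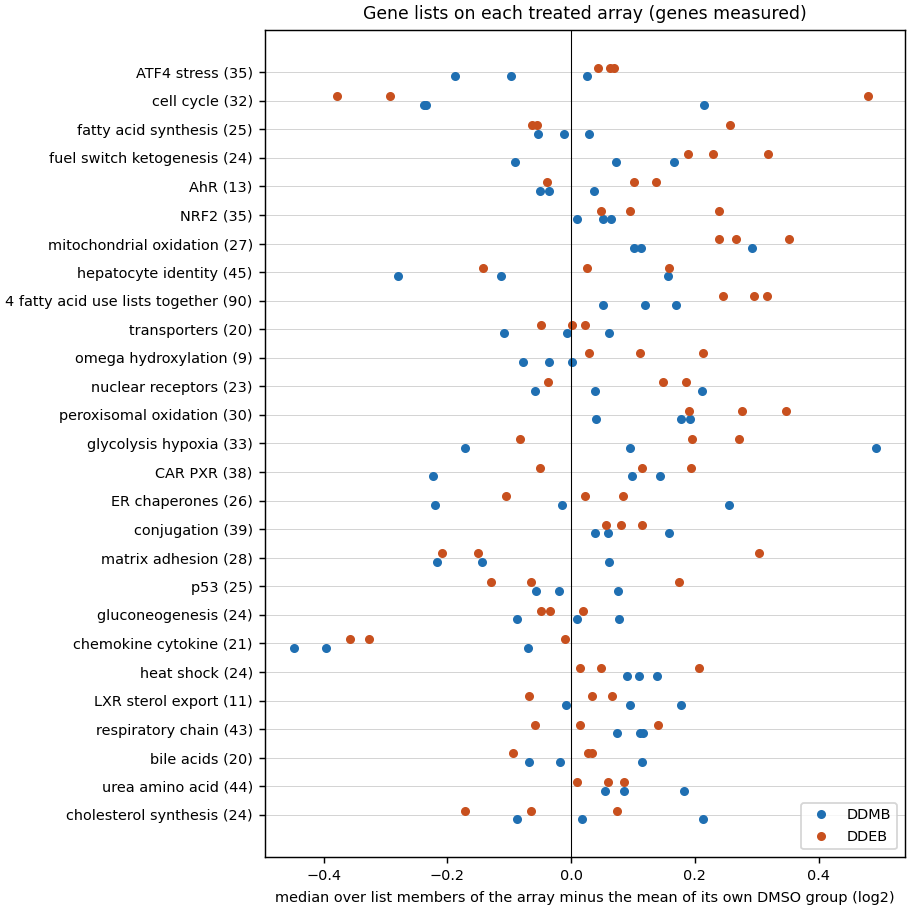
For each gene list, the median over its measured genes (number in brackets) of each treated array minus the mean of its own DMSO group, in log2, with 3 DDMB arrays in blue and 3 DDEB arrays in orange. The 90 genes of fatty acid use lie at 0.24 to 0.32 with DDEB and 0.05 to 0.17 with DDMB. In the lists of cell cycle, glycolysis and matrix genes the arrays of either compound are spread on both sides of 0.

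Among genes of foreign compound metabolism, Aldh3a1, Cyp2c11 and Cyp2b2 read lower with DDMB than in VC_1 and less so with DDEB. Others had estimates below 0, among them the efflux pump Abcb1a at -0.57 (interval -1.31 to 0.16), whose effect was -0.64 with DDEB and -0.06 with DDMB. The glutathione synthesis gene Gclm had -1.16 with an interval of -3.43 to 1.11. Aldh3a1, an aldehyde dehydrogenase and AhR target, stood at -3.05, -3.04 and -3.20 in VC_1 and at -4.19, -3.95 and -3.96 with DDMB. It stood at -2.84, -2.75 and -2.83 in VC_2 and at -3.17, -2.85 and -3.02 with DDEB. All treated arrays lay below their controls, by little with DDEB. The DDMB effect was -0.94 ± 0.10 (limma, adjusted p = 0.0159) and the DDEB effect -0.21 ± 0.10 (adjusted p = 0.502). The difference was 0.74 ± 0.14 (interval 0.42 to 1.05, unadjusted p = 0.000425, adjusted p = 0.759). The Cyp1 genes of the AhR list were not resolved to within 2-fold. Cyp1a1, the most inducible target of the receptor, spread from 1.23 to 3.40 in VC_1 and from 1.81 to 3.97 in VC_2, and its difference of -0.07 had an interval of -2.46 to 2.31. For Cyp1a2 the difference was 0.30 (interval -0.55 to 1.16), for Cyp1b1 0.97 (interval -0.53 to 2.47) and for the receptor gene Ahr 0.22 (interval -0.09 to 0.52). Of the 13 AhR genes measured, 1 was at an unadjusted p below 0.05, and the median difference was 0.13. For 7 of the 13 the interval lay within 2-fold either way, among them Ahr and Arnt (interval -0.34 to 0.13), so a larger gap falls outside it.

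Cyp2c11, the male-specific steroid hydroxylase that is among the main P450s of rat liver, stood at 4.13, 4.15 and 4.47 in VC_1 and 2.94, 3.20 and 3.20 with DDMB, and at 3.91, 3.91 and 4.28 in VC_2 and 3.49, 3.59 and 3.72 with DDEB. It lay below control on all arrays of both compounds. The effect was -1.14 ± 0.14 with DDMB (limma, adjusted p = 0.0218) and -0.43 ± 0.14 with DDEB (adjusted p = 0.329), a difference of 0.71 ± 0.20 (interval 0.27 to 1.14, unadjusted p = 0.00462). Cyp2b2, a CAR target, read 5.33, 5.43 and 4.57 in VC_1, 4.02, 3.25 and 4.15 with DDMB, 5.28, 5.43 and 4.51 in VC_2 and 4.84, 5.22 and 4.60 with DDEB. The DDMB arrays were below all of VC_1 and the DDEB arrays lay among those of VC_2, for a difference of 1.12 ± 0.47 (interval 0.07 to 2.17). The PXR target Cyp3a23-3a1 was above control on every treated array, by 0.75 ± 0.11 with DDEB and 0.53 ± 0.11 with DDMB, and the difference of 0.22 had an interval of -0.12 to 0.56. Of the 38 CAR and PXR genes measured, 3 were at an unadjusted p below 0.05 and higher with DDEB, namely these P450 genes Cyp2b2 and Cyp2c11 and the carboxylesterase Ces2c at 0.24 ± 0.09, with an effect of 0.16 for DDEB and -0.08 for DDMB. Over all genes 2.42% were higher with DDEB at that mark. Their median difference was 0.03, and it lay below 0 when replicate 1 or 2 of VC_1, replicate 2 of DDMB, replicate 2 of DDEB or replicate 3 of VC_2 was left out, at -0.13 for the last of these. It was 0.21 without VC_1 replicate 3, and the 95% interval lay within 2-fold either way for only 16 of the 38. Of 35 NRF2 targets of redox defence and 39 conjugation enzymes, 0 were at an unadjusted p below 0.05 (limma), with medians of 0.11 and 0.03. The NRF2 target Osgin1 came nearest, at 0.44 (interval -0.03 to 0.91).

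**Figure D3:**
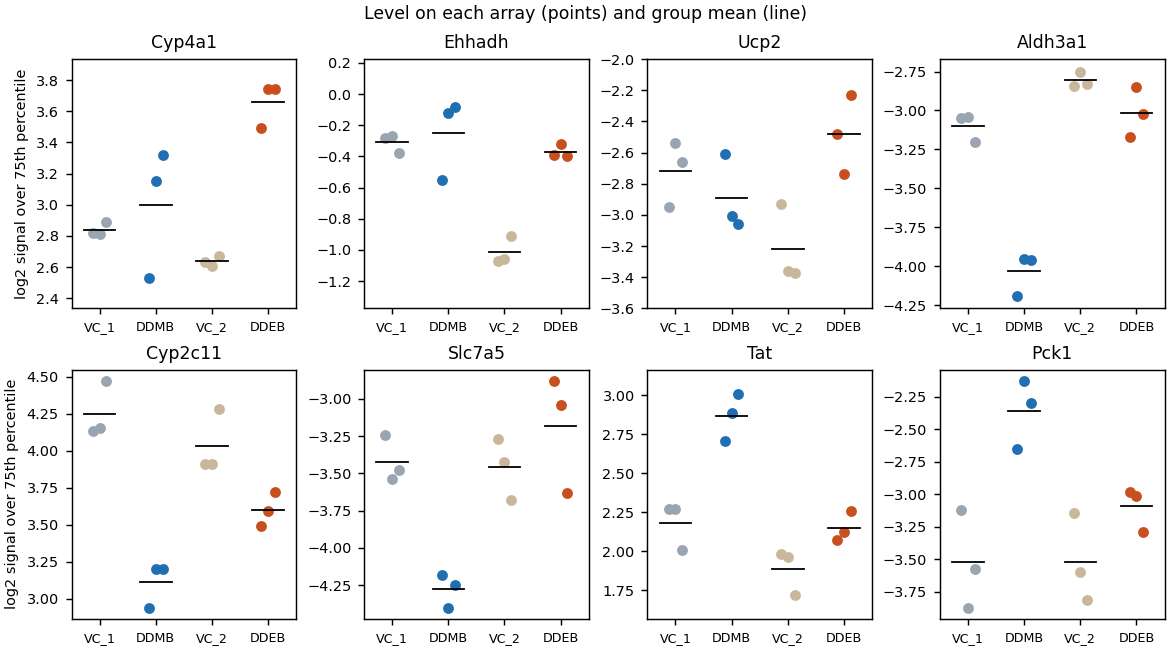
Level of 8 genes on each array (points, log2 signal over the array's 75th percentile) with the group mean as a line, in VC_1, DDMB, VC_2 and DDEB. Cyp4a1 is high on the 3 DDEB arrays, Aldh3a1, Cyp2c11 and Slc7a5 are low on the 3 DDMB arrays, Tat and Pck1 are high on the 3 DDMB arrays, and Ehhadh differs between the controls.

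Genes of glucose and amino acid metabolism leaned toward DDMB in a few members. Pck1, the gatekeeper enzyme of gluconeogenesis, stood at -3.12, -3.87 and -3.57 in VC_1 and -2.65, -2.13 and -2.30 with DDMB, and at -3.14, -3.60 and -3.81 in VC_2 and -2.98, -3.01 and -3.29 with DDEB. The DDMB arrays cleared their controls and the DDEB arrays overlapped theirs. The effect was 0.42 ± 0.22 with DDEB and 1.16 ± 0.22 with DDMB, a difference of -0.74 ± 0.32 (interval -1.44 to -0.03, unadjusted p = 0.0431). Tat, which starts the breakdown of tyrosine, read 2.27, 2.27 and 2.01 in VC_1, 2.71, 2.89 and 3.01 with DDMB, 1.98, 1.96 and 1.72 in VC_2 and 2.07, 2.12 and 2.26 with DDEB. Both compounds lay above control, with 0.26 ± 0.11 for DDEB and 0.68 ± 0.11 for DDMB, and the difference was -0.42 ± 0.16 (interval -0.78 to -0.06). Ass1, an enzyme of the urea cycle, had 0.26 ± 0.11 and 0.65 ± 0.11, a difference of -0.40 ± 0.15. G6pc1, which releases free glucose, had an estimate of -0.68 with an interval of -2.22 to 0.86, and Cps1 one of -0.55 with -2.56 to 1.46. Of 24 gluconeogenesis genes 1 was at an unadjusted p below 0.05, and of 44 genes of the urea cycle and amino acid breakdown 2 were, all lower with DDEB. The median difference of the urea and amino acid genes was -0.07, and it was 0.05 without VC_1 replicate 3, 0.01 without VC_2 replicate 1 and -0.17 without VC_2 replicate 3.

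The ATF4 genes of the integrated stress response had the highest median difference of the 26 lists, 0.18 over 35 genes, with 29 above 0 and 6 below. Their median effect was 0.07 with DDEB and -0.09 with DDMB. On the DDEB arrays the median member stood at 0.06, 0.04 and 0.07 and on the DDMB arrays at 0.03, -0.19 and -0.10. These do not overlap, but DDMB replicate 1 lies close to DDEB. With single samples left out the median difference was 0.05 (VC_2 replicate 3), 0.08 (DDMB replicate 2), 0.09 (VC_1 replicate 1) and 0.28 (VC_1 replicate 3). In 7 genes the DDEB arrays exceeded all DDMB arrays relative to control (8.24% of all genes), in 1 the reverse held (9.59% of all genes), and 2 were at an unadjusted p below 0.05 (4.04% of all genes). Over all genes 50.4% of differences lay above 0. Slc7a5, a carrier of large neutral amino acids, had the widest gap of the list. It stood at -3.24, -3.54 and -3.48 in VC_1 and -4.18, -4.40 and -4.25 with DDMB, and at -3.27, -3.42 and -3.68 in VC_2 and -2.88, -3.04 and -3.63 with DDEB. The DDMB arrays lay below all of VC_1 and the DDEB arrays lay among those of VC_2 or above. The effect was 0.27 ± 0.19 with DDEB and -0.86 ± 0.19 with DDMB, a difference of 1.13 ± 0.26 (interval 0.54 to 1.71, unadjusted p = 0.00165, adjusted p = 0.908). Asns, asparagine synthetase, was the other member at an unadjusted p below 0.05, at 0.26 ± 0.11. There too the treated groups were level (DDEB minus DDMB -0.01), and the controls differed by -0.26 (adjusted p = 0.0486). The transcription factor Atf3 had 0.29 (interval -0.01 to 0.58), the serine synthesis enzyme Phgdh 0.22 (interval -0.01 to 0.44) and the cystine carrier Slc7a11 0.63 (interval -0.68 to 1.95). The other probes of Phgdh and Slc7a11 gave 0.12 ± 0.16 and 0.00 ± 0.42.

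ATF4 pairs with C/EBP factors on a composite element, and the promoters of these members were searched for it. The motif TGATGNAAN was searched on both strands in the 250 bases before the annotated start (RefSeq, GRCr8), and a hit on the opposite strand reads NTTNCATCA. It was found in 893 of 27457 promoters (3.25%) and in 7 of the 29 ATF4 genes with a promoter in the table, namely Aars1, Chac1, Fgf21, Jdp2, Nupr1, Pycr1 and Trib3. The promoter of Slc7a5 is printed as that of the member with the widest gap, and those of Chac1 and Jdp2 as members with a match, chosen after their values were seen. Capitals mark the match, each sequence runs 5′ to 3′ on the gene's strand, and Slc7a5 holds none in this window.
Slc7a5 (chr19:66872413-66872662, minus strand): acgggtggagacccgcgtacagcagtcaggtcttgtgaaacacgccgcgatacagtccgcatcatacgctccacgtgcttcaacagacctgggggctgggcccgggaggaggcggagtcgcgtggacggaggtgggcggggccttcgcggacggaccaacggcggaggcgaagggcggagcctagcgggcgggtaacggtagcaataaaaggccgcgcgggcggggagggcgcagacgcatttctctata
Chac1 (chr3:126795881-126796130, plus strand): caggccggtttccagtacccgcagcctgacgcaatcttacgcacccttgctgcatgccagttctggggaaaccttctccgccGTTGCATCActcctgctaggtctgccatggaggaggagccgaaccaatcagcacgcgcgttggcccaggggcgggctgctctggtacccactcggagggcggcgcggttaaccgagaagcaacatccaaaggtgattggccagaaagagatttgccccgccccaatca
Jdp2 (chr6:110993341-110993590, plus strand): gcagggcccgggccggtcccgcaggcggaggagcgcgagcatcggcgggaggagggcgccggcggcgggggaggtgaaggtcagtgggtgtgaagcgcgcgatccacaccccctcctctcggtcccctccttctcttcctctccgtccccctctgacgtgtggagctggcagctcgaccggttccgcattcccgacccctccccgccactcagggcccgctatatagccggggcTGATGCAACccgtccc
Chac1, which degrades glutathione, had a difference of 0.58 (interval -0.88 to 2.03), and Jdp2, a repressor of AP-1, one of 0.66 (interval -0.07 to 1.40). Trib3, a pseudokinase that feeds back on ATF4, had 0.33 (interval -0.65 to 1.31). A match is a description of these letters and not of a bound site.

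Lipid synthesis and sterol genes showed smaller estimates. Scd, the stearoyl-CoA desaturase, stood at 6.46, 6.46 and 6.25 in VC_1, 6.60, 6.45 and 6.62 with DDMB, 6.40, 6.35 and 6.28 in VC_2 and 6.90, 6.82 and 6.91 with DDEB. DDEB arrays lay above control and DDMB arrays overlapped theirs, for a difference of 0.37 ± 0.12 (interval 0.11 to 0.62, unadjusted p = 0.0104). Scd was the only 1 of 25 fatty acid synthesis genes at an unadjusted p below 0.05, and 20 of the 25 differences lay above 0 (median 0.16, and 0.07 without DDEB replicate 3). The median member stood at -0.06, -0.05 and 0.26 on DDEB replicates 1 to 3. On the DDMB arrays it stood at -0.01, 0.03 and -0.05, so the arrays of the compounds overlap. The 24 cholesterol synthesis genes had a median of -0.12, with 15 below 0, 0 at an unadjusted p below 0.05 (limma) and -0.03 without DDMB replicate 1. Idi1, an isomerase of the pathway, had the lowest estimate named there, -0.56 (interval -1.15 to 0.02), and -0.32 without DDMB replicate 1. Abcg5, a sterol exporter and LXR target, was above control with both compounds, by 0.88 ± 0.16 and 1.02 ± 0.16, with a difference of -0.14 (interval -0.65 to 0.37). None of 11 LXR genes and none of 20 bile acid genes was at an unadjusted p below 0.05 (limma), with medians of -0.03 and -0.07. The bile acid median changed sign without VC_1 replicate 3, VC_2 replicates 1 or 2, DDMB replicate 3 or DDEB replicate 3, and the LXR median without VC_1 replicate 1 or 3, VC_2 replicate 2 or DDMB replicate 2.

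The remaining functions gave at most 2 members at an unadjusted p below 0.05. The 43 respiratory chain genes were the best resolved list, since every interval lay within 2-fold either way. Their median difference was -0.05, 31 lay below 0, and the lowest was Cox5a, a subunit of cytochrome c oxidase, at -0.28 ± 0.12, whose other probe gave -0.03. Of 45 genes of hepatocyte identity, 37 lay above 0 with a median of 0.10. That median was -0.04 without VC_2 replicate 3 or DDMB replicate 2 and 0.27 without VC_1 replicate 3. Itih1, a plasma protease inhibitor chain, was the 1 member at an unadjusted p below 0.05, at 0.43 ± 0.15. The 32 cell cycle genes had a median of 0.17, but the DDEB arrays stood at -0.38, -0.29 and 0.48 above control, and without DDEB replicate 3 the median was -0.14. It was -0.07 without VC_1 replicate 3. The chaperone Hspb1 was above control with both compounds, by 0.45 ± 0.12 and 0.78 ± 0.12 (difference -0.33, interval -0.72 to 0.05), and 0 of 24 heat shock genes were at an unadjusted p below 0.05 (limma). The same count of 0 held for 26 endoplasmic reticulum chaperones, 33 genes of glycolysis and hypoxia, 20 drug transporters and 23 nuclear receptors (limma). Among 25 p53 targets 1 passed that mark, the kinase Plk3 at 0.37 ± 0.16. Among 28 matrix genes it was Lama5, a laminin chain, at 0.41 ± 0.18, with -0.06 from its other probe. Among 21 chemokine genes it was Cxcl9 at 0.32 ± 0.13 and Cxcl12 at 0.39 ± 0.17, both ligands that draw in leukocytes. For Cxcl12 the other probe gave 0.18 ± 0.17, DDEB minus DDMB was 0.00 and the controls differed by -0.39.

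Genes outside the lists led the table by unadjusted p. Nnat, a small membrane proteolipid best known from neurons, stood at -2.42, -2.43 and -2.42 in VC_1, -2.59, -2.50 and -2.53 with DDMB, -2.48, -2.38 and -2.46 in VC_2 and -2.06, -2.07 and -2.0 with DDEB. The replicates were close, and the DDEB arrays lay apart from the other 9. Its effects were 0.40 ± 0.06 and -0.12 ± 0.06, a difference of 0.52 ± 0.09 (limma, unadjusted p = 0.000155, adjusted p = 0.513). Eif4ebp3, a repressor of cap-dependent translation, stood at 3.50, 3.41 and 3.45 in VC_1, 3.81, 3.94 and 4.07 with DDMB, 3.47, 3.33 and 3.28 in VC_2 and 3.24, 3.16 and 3.07 with DDEB. The DDMB arrays lay above their controls and the DDEB arrays below theirs. The effects were -0.20 ± 0.09 with DDEB and 0.49 ± 0.09 with DDMB, a difference of -0.69 ± 0.12 (interval -0.96 to -0.41, unadjusted p = 0.000254, adjusted p = 0.543). The other leading genes with a higher effect of DDEB were Aanat, Aldh3a1, Rtn4r (1.19), Spata2L (0.46), C4h2orf81 (0.65), Csnk1e (0.80), Slc7a5, Mfsd4a (0.90) and Zbtb1 (0.49, with -0.04 from its other probe). Those with a lower effect were Ttc41 (-0.53), Myog (-1.21), Gabarapl2 (-0.37, with -0.06 from its other probe), Spock1 (-0.78), Gmfb (-0.31), Unc5d (-1.19), Ccdc65 (-1.19), Asrgl1 (-0.35) and Cfap210 (-0.46).

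The gap between the controls enters each of these values. Of the 864 genes at an unadjusted p below 0.05, the controls differed by more than the treated groups did in 305. The like count over all genes was not made, so 305 cannot show whether the control gap weighs more in these genes than in others. Among the leading genes, DDEB minus DDMB was 0.08 for Zbtb1 with a control gap of -0.41 (limma, adjusted p = 0.00959), -0.04 for Spock1 with 0.74 (adjusted p = 0.00557) and -0.08 for Gmfb with 0.23 (adjusted p = 0.0307). It was 1.93 for Rtn4r with a control gap of 0.74 (limma, adjusted p = 0.0168). For C4h2orf81 it was 1.75 with 1.10 (limma, adjusted p = 0.000194). Cox5a had 0.15 with a control gap of 0.43 (adjusted p = 0.00922).

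Several leading genes were dim. Aanat, which makes the precursor of melatonin, was not well above background on any array of VC_1 or DDMB. Its level was -4.34, -4.63 and -4.88 in VC_2 and -3.58, -3.34 and -3.45 with DDEB, an effect of 1.16 ± 0.13 (limma, adjusted p = 0.0239), but the DDMB side gives no measure and no difference can be bounded. Spock1 and Ccdc65 were not well above background on any DDEB array, so the DDEB side is not measured, and with normexp and the 75th percentile their differences were -0.07 and 0.00. Rtn4r was well above background on only 1 of 3 DDMB arrays. Myog, the muscle regulator myogenin, was 1.98 higher in VC_2 than in VC_1 (limma, adjusted p = 0.000305). Between the treated groups, DDEB minus DDMB was 0.77, opposite in sign to its difference of effects (-1.21). Of 6 skeletal muscle markers 3, Myog itself among them, were well above background on all 12 arrays. The summed level of the muscle markers, Myog included, lay at 4.78 to 5.11 across the 4 groups, and its part in the Myog value was not tested.

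All 14 genes called for DDMB had DDEB estimates of the same sign (62.1% of all genes had the same sign in both). In most of them the interval of the difference reached 0. In Aldh3a1, Cyp2c11, Slc9a9 and some genes without a symbol it did not. Sstr3, a somatostatin receptor, stood at 0.56, 0.80 and 0.70 in VC_1, -0.71, -0.51 and -0.81 with DDMB, 0.57, 0.94 and 0.84 in VC_2 and -0.34, -0.20 and 0.07 with DDEB. Every treated array lay below its controls. The effects were -0.94 ± 0.14 with DDEB and -1.36 ± 0.14 with DDMB, a difference of 0.42 (interval -0.01 to 0.85). Nefm, a neurofilament protein, had -1.36 ± 0.20 and -1.75 ± 0.20, a difference of 0.40 (interval -0.24 to 1.03), and -0.12 under quantile normalization. Nefm was well above background on only 1 of 3 DDEB arrays and 2 of 3 DDMB arrays, so both treated levels lie near background. Of 6 neuron markers 1, Nefl, was well above background on all 12 arrays and Snap25 and Syp on none. The summed level of the 6 was -1.68 to -1.16 in VC_1 and -2.89 to -2.36 with DDMB. It was -1.55 to -1.0 in VC_2 and -2.18 to -1.74 with DDEB. Nefm and Nefl are themselves among the 6, so this sum is not a reading of cell content apart from Nefm. The part of cell content in the Nefm value was not tested. Selenop, the plasma selenium carrier, had a difference of 0.26 (interval -0.01 to 0.52). Slc9a9, an endosomal sodium-proton exchanger, had -0.45 ± 0.08 and -0.74 ± 0.08, and its interval of 0.03 to 0.56 did not reach 0 (unadjusted p = 0.0318). Pla1a, a phospholipase, had -0.59 ± 0.12 and -0.96 ± 0.12, a difference of 0.37 (interval 0.00 to 0.74). Colq, an anchor of acetylcholinesterase that was called for neither compound, had 1.51 ± 0.23 and 1.07 ± 0.23, a difference of 0.44 (interval -0.30 to 1.17).

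**Figure D4:**
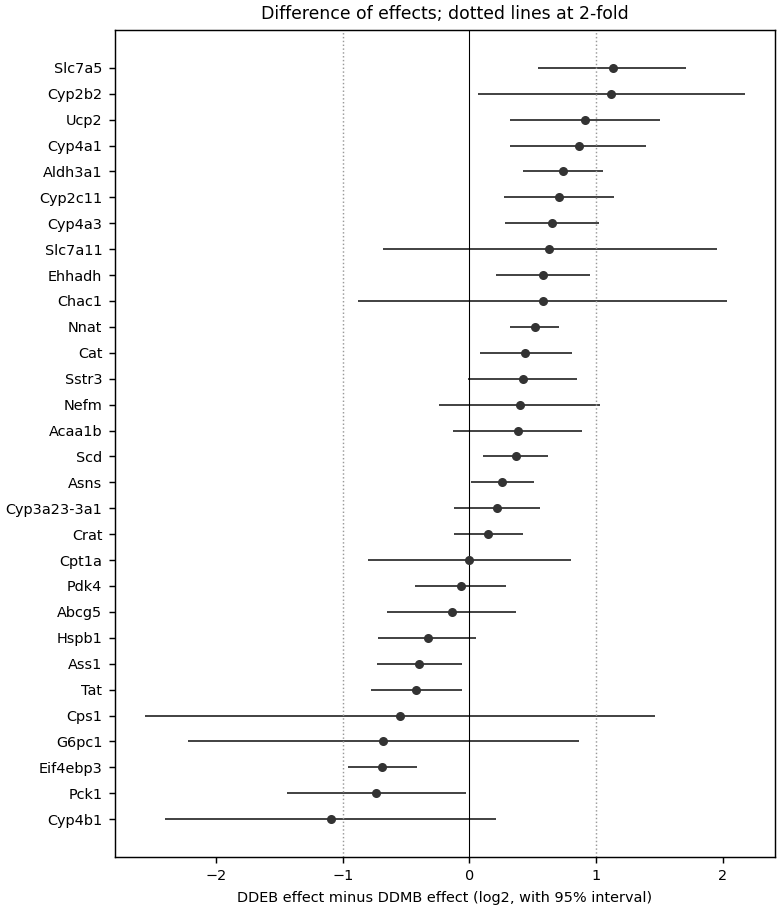
The DDEB effect minus the DDMB effect (points, log2) with its 95% interval (bars) for 30 genes, ordered by size, with dotted lines at a 2-fold difference either way. The intervals of Slc7a5, Cyp4a1 and Aldh3a1 clear 0 and reach past 1, and that of Cps1 spans both dotted lines.

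The resolution of the comparison follows from the error of a difference of 4 group means. The median SE of the difference was 0.203, against 0.143 for the effect of 1 compound. The 95% interval reached a median of 0.452 to either side, a factor of 1.37, and this was 0.731 in the dimmest of 3 equal bins of genes by level, 0.409 in the next and 0.322 in the brightest. For 16295 genes (76.1%) the whole interval lay within 2-fold either way, and for 10247 (47.9%) it lay within 1.5-fold, so for these a larger gap between the compounds falls outside the interval. For 2903 genes (13.6%) the interval reached more than 1 to either side, so an estimate of 2-fold could not be told from 0. The interval lay wholly beyond 2-fold for 6 genes and wholly beyond 1.5-fold for 25. These intervals are not adjusted for the number of genes, and none of these genes is a called difference. Some of the 6 rest on a group that was not well above background on any array. The typical estimate was smaller than its margin, with a median size of 0.134. Over genes, the SD of the estimates (0.317) was no larger than the root mean square of their SEs (0.333). DDEB had the widest spread between replicates, with a median SD of 0.189 against 0.147 in VC_1, 0.140 in VC_2 and 0.135 with DDMB.

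**Figure D5:**
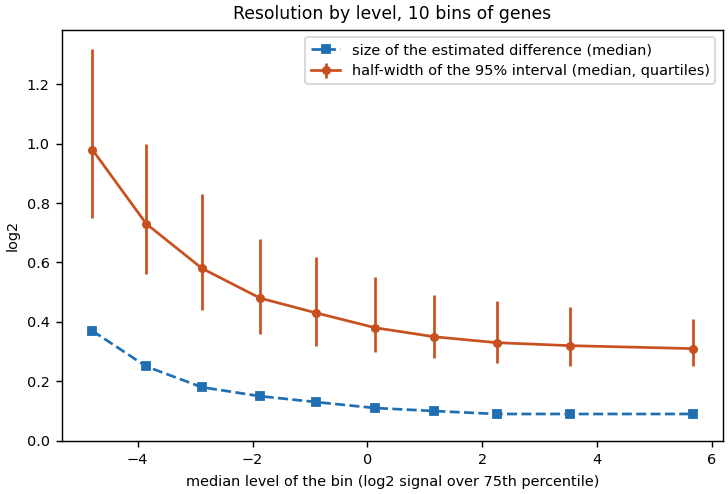
The reach of the 95% interval of the difference to either side (orange, median and quartiles, log2) and the size of the estimated difference (blue, median, log2) in 10 bins of genes by level. The reach falls from 0.98 in the dimmest bin to 0.31 in the brightest, and the estimated difference lies below it in every bin, from 0.37 to 0.09.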

How the data were processed

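RNA of each sample was hybridised to 1 Agilent array with the dye Cy3. Spot intensities come from Agilent Feature Extraction 10.7.1.1, whose processed intensity has the background removed within each array, per the file headers. The authors' deposited tables hold linear signal, scaled separately for 2 chip lots per the design text, by a method not given in the sources used here; they served as an alternative. Here the log2 processed intensity was averaged over a probe's unflagged spots and the array's 75th percentile over probes was subtracted. Probes flagged throughout on any of the 12 arrays (418 of 45598) were dropped. Probes well above background on all 3 arrays of any of the 4 groups were kept (25112), and the brightest stood for its gene, giving 21401 genes, of which 10510 have no matched name. Names came from accessions matched to RefSeq (GRCr8), for 21109 probes. The 4 group means were estimated per gene (R 4.3.3, limma 3.58.1 with eBayes moderation) with 8 degrees of freedom left, and tests were two-sided with Benjamini-Hochberg adjustment over all genes. Errors are standard errors. The script was tested on simulated data. The number of arrays limits the precision.

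A gene was named if it was among 10 per direction (called genes first, then by unadjusted p), among up to 4 per list by moderated t, or in a set named by earlier results. Cps1, G6pc1, Slc7a11, Chac1, Jdp2, Trib3, Cyp1a1, Cyp1a2, Cpt1a and Gclm were named after their values were seen. So were Txnip, Pcsk5, Slc9a9, Pla1a and Selenop, and genes known only by count. Members and lists were chosen with earlier results of these data known. Lists are described by counts and medians, without a test, and some single genes are not reported here. The samples share replicate numbers, but correlations of same-numbered deviations ran from -0.426 to 0.809 and 11 of 18 exceeded 0.1, so the numbers were not taken as pairs. The files hold no mean signal, so the normexp alternatives (offset 50) used the median signal. The alternatives were other scalings, filters, probe rules, blocks, weights and priors and leaving out each sample; the 75th percentile over spots was chosen after seeing the data.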

Additional observations from a re-analysis of the deposited data

How the results depend on the processing

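A fixed slide block gave the same values as leaving out DDEB replicate 3, the only array of its slide: 13 genes for DDEB, 22 for DDMB, 4921 between the controls, a transporter median of 0.003 and 0.54 for Cyp1a1. The controls lie on different slides, so slide and control group cannot be told apart. The count of called differences was 2 with quantile normalization, 1 with probes well above background on all 12 arrays, 1 with the slide as a random block, 0 to 1 when single samples were left out and 0 in the other settings run (limma). Over all settings 566 to 1414 genes were at an unadjusted p below 0.05. With the replicate block it was 0, with 1414 at an unadjusted p below 0.05; the block gave 13 genes for DDEB and 32 for DDMB, and not every sample correlated best with its own number. The genes called for DDEB (4) numbered 180 with all 18 arrays, 37 with quantile normalization, 21 without the filter on dim probes or with probes above background on all 12 arrays, 17 with normexp and the 75th percentile or with trend and robust eBayes, 14 with normexp and quantile, 2 in the authors' deposited tables, 0 with group weights and 0 to 13 with samples left out. Those for DDMB (14) numbered 111 with all 18 arrays, 42 with group weights, 32 with the slide random, 28 with trend and robust eBayes, 0 without the filter and 0 to 22 with samples left out. The controls differed in 10783 genes without the filter, 352 with the slide random and 1747 to 4921 with samples left out. The median SE was 0.138 with normexp and quantile, where the offset compresses dim genes. With that setting the difference was 0.24 for Aldh3a1, 0.27 for Slc7a5, 0.22 for Rtn4r, 0.49 for Ucp2, 0.33 for Csnk1e, 0.29 for Nnat, -0.36 for Pck1, -0.56 for Myog and -0.56 for Unc5d. The median of the bile acid genes was 0.035 with normexp and the 75th percentile; the cause was not tested.

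With samples left out, list medians ranged over 0.053 to 0.183 for the 4 fatty acid lists, -0.001 to 0.16 for peroxisomal, 0.048 to 0.276 for ATF4, -0.203 to 0.056 for LXR, -0.154 to 0.084 for bile acid, -0.10 to 0.23 for chemokine, -0.081 to 0.047 for gluconeogenesis, -0.10 to 0.20 for nuclear receptor, 0.003 to 0.14 for transporter and -0.166 to 0.046 for urea genes. Estimates near 0 changed sign. Cpt1a was 0.02 with normexp and the 75th percentile, 0.01 with normexp or plain quantile normalization and -0.24 to 0.16 with samples left out. Cyp1a1 was 0.22 with the slide random and -0.73 to 0.59 with samples left out. Those ranges were -1.13 to 0.01 for Cps1, -0.14 to 0.03 for Pdk4 and -0.22 to 0.04 for Pcp4l1. Pcp4l1 was 0.01 with normexp and the 75th percentile and 0.00 with normexp and quantile, Gls2 and Hpd were 0.00 with normexp and quantile, Ncor1 was 0.00 with the mean of its probes, and Nefm was -0.12 with quantile normalization. No other named gene changed the sign of its difference under the alternatives run, apart from Gclm, for which this was not examined.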

Other observations

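The probe with the smallest adjusted p has no matched name. It carries the transcript identifier ENSRNOT00000005121 and differed by 1.36 ± 0.15 (interval 1.03 to 1.69, limma, adjusted p = 0.0753), with an effect of 1.15 ± 0.10 for DDEB and -0.22 ± 0.10 for DDMB. It was called with quantile normalization (adjusted p = 0.0148), with probes well above background on all 12 arrays (adjusted p = 0.0463) and with the slide as a random block (adjusted p = 0.0469).

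Same-numbered cultures of the controls deviated together across chip lots. Deviations from the group mean correlated across genes at 0.633, 0.469 and 0.809 between replicates 1, 2 and 3 of VC_1 and VC_2. DDMB replicate 2 correlated at 0.638 with VC_1 replicate 3 and at -0.426 with VC_1 replicate 2, and DDMB replicate 3 at 0.085 with VC_1 replicate 3. DDEB replicate 3 correlated at 0.527 with VC_1 replicate 3. The labels do not say what a replicate number marks.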
